A study of Mus musculus with 8 samples.

Results

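Lysosomal glycosidases cut sugars from glycans, glycolipids and glycoproteins, and lysosomal sulfatases remove sulfate groups from the same chains. The members described here are 9 genes, of which 8 encode glycosidases (Hexa, Glb1, Gusb, Gaa, Gla, Man2b1, Naglu and Neu1) and 1 encodes a sulfatase (Ids). They were taken from the array by name, as all probe sets annotated with exactly 1 gene symbol where that symbol is one of the 9, which gave 15 of 12422 probe sets that are not controls and 9 of 8251 named genes. A probe set is the group of short oligonucleotides that measures 1 transcript. The 8 arrays fall into 4 of subconfluent cultures, below 50% confluency, and 4 of mature confluent monolayers. Both groups are cells that the labels call mouse aortic endothelial cells, with equal cell numbers in all samples and no other treatment named. The sources used here do not state the strain, the passage or how the cells were obtained. In both groups the samples are numbered as experiments 1 to 4.

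These enzymes are made in the endoplasmic reticulum, receive a mannose 6-phosphate tag in the Golgi apparatus and are carried by mannose 6-phosphate receptors to the lysosome. There the glycosidases remove terminal sugars and the sulfatase removes sulfate groups. Chains are degraded from their ends, so the loss of 1 enzyme stalls the whole chain, and inherited loss of any of the 9 causes a storage disease. Many of their genes carry the CLEAR element, a sequence around an E-box through which the transcription factor TFEB and its relatives act on lysosomal genes. In the vessel wall, heparan sulfate on the cell surface is one of the main chains that reaches the lysosome.

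Values are Affymetrix signals on a linear scale, set by the authors to a common level on each array. A gene was tested where its signal averaged at least 200 over the 8 arrays, and a gene with several probe sets was represented by its brightest one on average. Differences are subconfluent minus confluent on the scale of log2(signal + 50), which understates the change of weak genes, and adjusted p-values are from limma with Benjamini-Hochberg adjustment over all 6007 tested probe sets, called below 0.05. Of all tested probe sets, 4.06% were lower and 2.75% higher in subconfluent cells by that rule. Of the 9 genes 7 were tested, while Gla and Neu1 stayed under the minimum. The number of arrays limits the precision. Arrays with the same experiment number deviated together, so a fit with the experiments as pairs is given too where it changes the call of a gene or the count of a list, and in it 11.3% of all tested probe sets were lower and 9.94% higher. The scale factors ran from 3.05 to 13.3 in subconfluent and from 3.56 to 8.99 in confluent arrays. The label of the cells was checked against 15 endothelial markers, and 1 of them, Eng, reached the minimum. The endothelial cadherin gene Cdh5 had a signal of at most 29.5 on any array. Vwf, the von Willebrand factor gene, had at most 30.9, so both of these defining markers were absent or near background. Other endothelial markers under the minimum reached more on their highest array, with Sox18 at 266.7, Kdr at 203.6, Ptprb at 183.7, Sox17 at 166.0 and Pecam1 at 163.3. In bulk samples, fewer cells of a type and less RNA per cell cannot be told apart.

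In subconfluent cells, transcripts of 2 of the 7 tested enzymes fell, Naglu to 2.55-fold and Glb1 to 2.22-fold lower levels. Naglu encodes alpha-N-acetylglucosaminidase, which removes N-acetylglucosamine from heparan sulfate. Its signal was 304.6, 257.7, 398.1 and 382.4 in subconfluent experiments 1 to 4, against 1611.1, 647.7, 708.8 and 968.6 in confluent experiments 1 to 4. Every subconfluent value lay below every confluent value, and the spread was wide in confluent cells, where experiment 1 stood highest. The means were 336 ± 66.1 in subconfluent and 984 ± 441 in confluent cells (SD, n = 4 each), a log2 difference of -1.35 ± 0.26 (SE, limma adjusted p = 0.0179). Naglu had the 91st lowest difference of all 6007 tested probe sets. Glb1 encodes beta-galactosidase, which takes galactose from the ganglioside GM1 and from keratan sulfate. Glb1 had signals of 708.1, 356.0, 548.5 and 671.3 in subconfluent experiments 1 to 4, against 1919.5, 949.3, 1196.3 and 1273.3 in confluent ones. Again the groups did not overlap, and in both of them experiment 1 was highest and experiment 2 lowest. The means of Glb1 were 571 ± 159 in subconfluent and 1335 ± 414 in confluent cells (SD, n = 4 each), a log2 difference of -1.15 ± 0.25 (SE, limma adjusted p = 0.0261). A second Glb1 probe set, whose name marks a sequence shared within a family, lay under the minimum at a mean of 178. It had a log2 difference of -0.93, with means of 103 ± 18.2 in subconfluent and 253 ± 108 in confluent cells (SD, n = 4 each). Without the signal minimum it was not called (limma adjusted p = 0.101, and 0.0521 with the experiments as pairs).

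Among all tested probe sets 8.54% had subconfluent values wholly below the confluent ones, and among the 7 tested enzymes these were Naglu and Glb1. Both differences were present in every experiment, from -2.23 in experiment 1 to -0.76 in experiment 3 for Naglu and from -1.38 in experiment 1 to -0.88 in experiment 4 for Glb1. The call of Glb1 depended on single arrays. It was lost without confluent replicate 1, 3 or 4 or without subconfluent replicate 2, 3 or 4, with adjusted p up to 0.0616, and the call of Naglu was lost without subconfluent replicate 2 (adjusted p = 0.0506), while both stayed below 0.05 in the fit with the experiments as pairs (limma adjusted p = 0.0052 for Naglu and 0.00158 for Glb1). Within chip lot C, with 2 subconfluent arrays against 1 confluent array, the log2 differences were -0.79 for Naglu and -0.92 for Glb1 and neither was called.

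**Figure D1:**
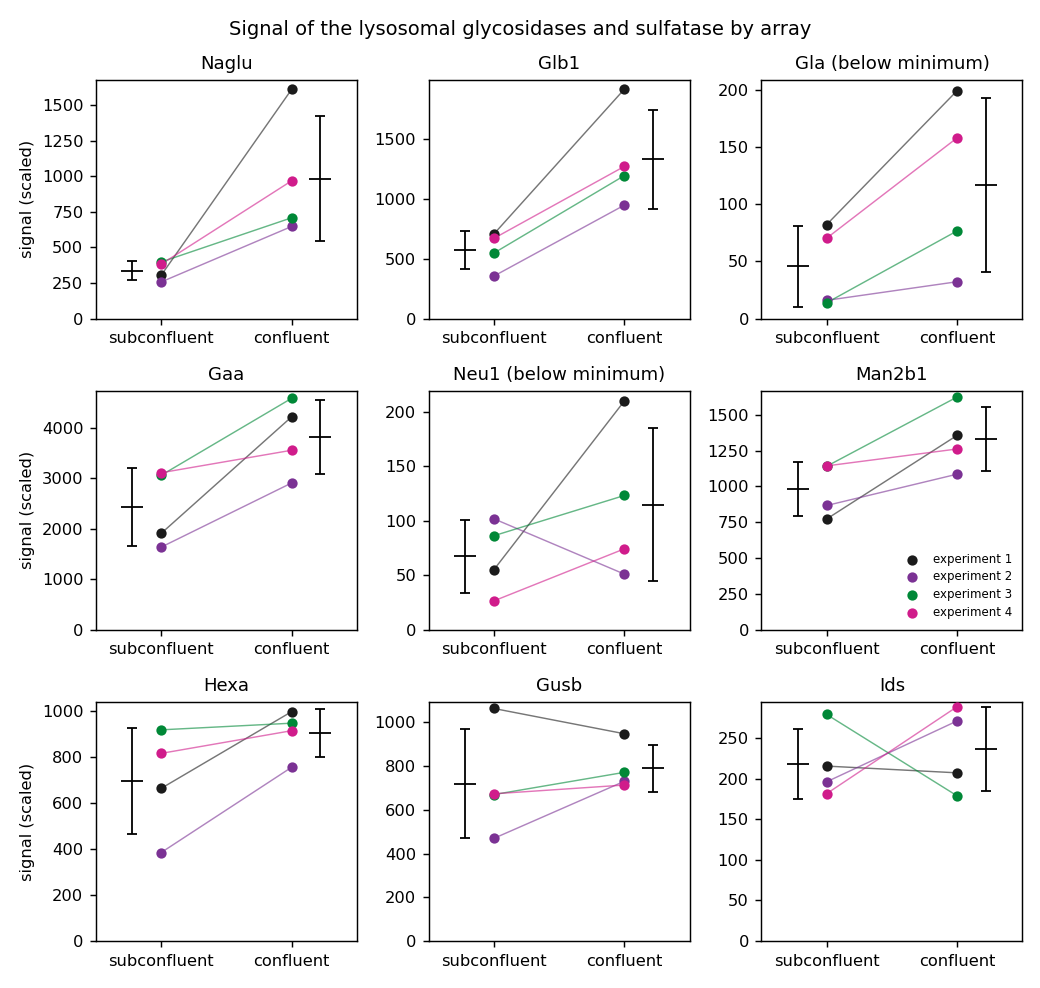
Signal (scaled, linear) of the 9 genes on every array, subconfluent at the left and confluent at the right of each panel. Lines join arrays of the same experiment number, and bars give mean ± SD (n = 4). In the Naglu and Glb1 panels all subconfluent points lie below all confluent points, while in all other panels the groups overlap.

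The stretch of 250 bases before a transcription start was read for all 9 genes from RefSeq promoter sequences (mouse build GRCm38.p6), with 1 start per gene. That start was the edge of the annotated gene in 6 of them and lay inside the gene in the other 3, by 4 bases in Naglu, 539 in Man2b1 and 20749 in Ids, so other starts of these genes, such as those further upstream in Man2b1 and Ids, were not searched. These sequences are shown because the enzyme genes with the most negative differences share letters here. They were searched on both strands for the E-box CACGTG and for TCACGTG, in windows that also held 50 bases after the start. TCACGTG is an E-box with the flanking T of the CLEAR element (CACGTGA on the other strand), and not the full element. Longer forms of the element were searched too. The promoters of Naglu, Glb1, Gaa and Gla held TCACGTG, and the promoters of Hexa, Gusb, Man2b1, Neu1 and Ids held no CACGTG. Capitals mark CACGTG with a T before it and an A after it where present, and the Gusb promoter is shown as one with no match.

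Naglu promoter, chr11:101069844-101070093, plus strand: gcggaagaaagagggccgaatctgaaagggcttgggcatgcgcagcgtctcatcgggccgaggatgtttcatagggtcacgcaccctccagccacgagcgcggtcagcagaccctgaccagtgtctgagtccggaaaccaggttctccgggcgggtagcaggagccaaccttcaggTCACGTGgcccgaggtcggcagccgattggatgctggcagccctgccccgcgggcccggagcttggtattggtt

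Glb1 promoter, chr9:114400828-114401077, plus strand: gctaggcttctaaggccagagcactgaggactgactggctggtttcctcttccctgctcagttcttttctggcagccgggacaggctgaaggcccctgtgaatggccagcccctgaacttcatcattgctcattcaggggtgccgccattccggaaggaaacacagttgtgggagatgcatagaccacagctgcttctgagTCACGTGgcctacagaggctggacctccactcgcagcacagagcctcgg

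Gaa promoter, chr11:119267713-119267962, plus strand: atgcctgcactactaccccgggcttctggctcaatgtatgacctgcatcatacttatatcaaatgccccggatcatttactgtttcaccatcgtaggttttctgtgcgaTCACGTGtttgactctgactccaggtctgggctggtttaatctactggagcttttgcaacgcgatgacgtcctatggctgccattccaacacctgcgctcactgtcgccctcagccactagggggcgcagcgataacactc

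Gla promoter, chrX:134601006-134601255, minus strand: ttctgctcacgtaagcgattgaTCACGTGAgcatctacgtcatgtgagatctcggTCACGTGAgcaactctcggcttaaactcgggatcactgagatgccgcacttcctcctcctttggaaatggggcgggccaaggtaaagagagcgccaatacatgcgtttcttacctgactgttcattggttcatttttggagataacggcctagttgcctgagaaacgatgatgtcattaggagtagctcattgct

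Gusb promoter, chr5:130003050-130003299, minus strand: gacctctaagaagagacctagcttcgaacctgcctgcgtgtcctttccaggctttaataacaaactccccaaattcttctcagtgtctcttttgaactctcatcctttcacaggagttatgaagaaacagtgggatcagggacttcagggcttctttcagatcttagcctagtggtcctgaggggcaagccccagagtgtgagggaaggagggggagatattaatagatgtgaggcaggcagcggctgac

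Counted from the first letter of CACGTG, the match began 73 bases before the start in Naglu, 48 in Glb1 and 140 in Gaa. Gla had 2 matches, at 227 and 194 bases before the start by the same count. Each lay in the longer form TCACGTGA, which was in 0.974% of all windows. Of the tested enzymes 0 held TCACGTGA. The full palindromic CLEAR element, which extends TCACGTGA by a further base on each side, was in 0 of the 9 promoter windows. Of all windows 0.326% held it. Of all 32851 RefSeq windows of this length, 3.77% held TCACGTG and 7.15% held CACGTG. Among the tested enzymes, the 3 with TCACGTG had log2 differences from -1.35 to -0.68, and the 4 without it from -0.43 to -0.09. Among these 4, the windows of Man2b1 and Ids lay inside the annotated gene, so starts further upstream were not searched. Not all of the other tested lysosomal genes of the lists had a promoter sequence. Among those that did, the median was -0.57 in the 13 that held TCACGTG and -0.44 in the 23 that did not. Over all tested genes with a promoter sequence, 3.33% of the 300 with TCACGTG were lower in subconfluent cells by limma, against 4.52% of the 3519 without it, and the medians were -0.09 and 0.01. The letters were looked at after the differences were known, a match does not show that a factor binds there, and no match says only that these letters are not in the window. Of the genes for TFEB and its relatives, Tfeb and Mitf were on the array by name and stayed under the minimum, with Tfeb at 31.7 in subconfluent and 43.3 in confluent cells and Mitf at 86.6 in subconfluent and 75.0 in confluent cells (means, n = 4 each).

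**Figure D2:**
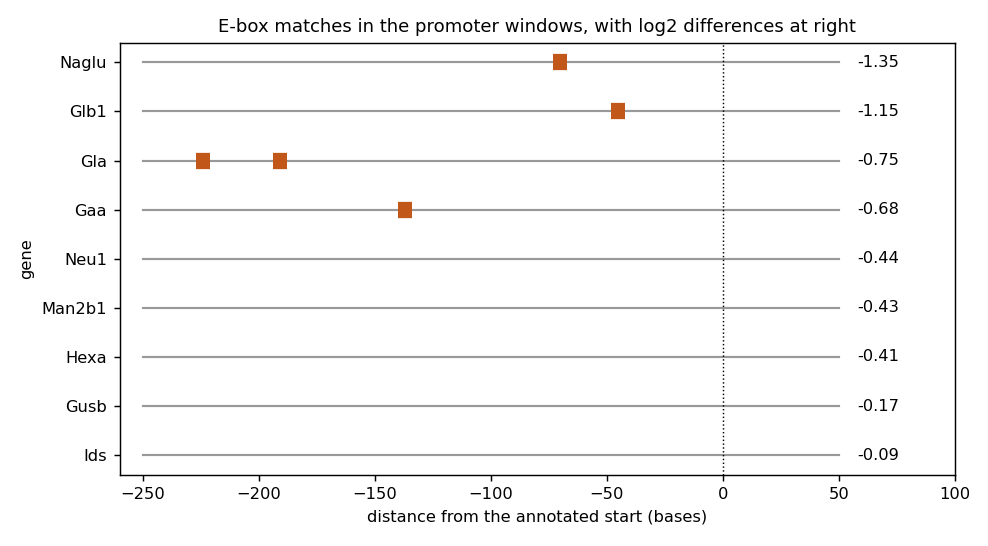
Promoter windows of the 9 genes drawn to scale, from 250 bases before to 50 bases after the start used (dotted line), ordered from the most negative log2 difference at the top. Blocks mark E-box matches, the numbers at the right are the log2 differences, and the 4 genes with a match, Naglu, Glb1, Gla and Gaa, have the 4 most negative of them. Gla and Neu1 lay under the signal minimum, and their differences are from the fit without it.

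The other enzymes of heparan sulfate breakdown among the members, Ids and Gusb, were not called. Ids encodes iduronate 2-sulfatase, which removes a sulfate group from heparan and dermatan sulfate. Its signal was 215.4, 196.1, 279.0 and 181.5 in subconfluent experiments 1 to 4, against 207.1, 271.1, 178.7 and 288.7 in confluent ones. The groups overlapped throughout, and the sign differed between experiments, with 2 of 4 lower. The log2 difference of Ids was -0.09 (95% interval -0.53 to 0.35, limma adjusted p = 0.833). Its mean of 227 was just over the minimum, and its other probe sets averaged 67.2 and 31.1. Gusb encodes beta-glucuronidase, which takes glucuronic acid from the same chains. Gusb had signals of 1063.6, 469.4, 669.7 and 673.2 in subconfluent experiments 1 to 4, against 948.0, 730.6, 771.5 and 713.3 in confluent ones. Experiment 1 was higher and the other 3 lower in subconfluent cells, and the groups overlapped. The log2 difference of Gusb was -0.17 (95% interval -0.66 to 0.31, limma adjusted p = 0.673). Hgsnat, named here after its value was seen, encodes the enzyme that acetylates heparan sulfate ends just before Naglu acts on them, and its log2 difference was -0.23 (limma adjusted p = 0.321).

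Hexa and Neu1 act with Glb1 on gangliosides, the sialic acid glycolipids. Hexa encodes the alpha subunit of beta-hexosaminidase, which removes N-acetylgalactosamine from GM2, the product of Glb1. Hexa had signals of 662.3, 383.6, 916.4 and 814.2 in subconfluent experiments 1 to 4, against 995.4, 753.9, 945.3 and 912.7 in confluent ones. All 4 experiments were lower in subconfluent cells, by more in 1 and 2 (log2 -0.55 and -0.89) than in 3 and 4 (-0.04 and -0.16), and the groups overlapped. The log2 difference was -0.41 ± 0.24 (SE) and did not pass (limma adjusted p = 0.306, and 0.111 with the experiments as pairs). A second Hexa probe set averaged 48.7, under the minimum. It had a log2 difference of -0.56 and was not called (limma adjusted p = 0.252 without the signal minimum). Neu1 encodes the sialidase that removes terminal sialic acid, in a complex with beta-galactosidase and the carboxypeptidase cathepsin A. Neu1 had signals of 55.1, 101.7, 86.2 and 26.5 in subconfluent experiments 1 to 4, against 209.8, 51.0, 123.1 and 74.2 in confluent ones. These are weak values with overlapping groups, lower in subconfluent cells in 3 of 4 experiments. In the fit of all 12422 probe sets without the signal minimum, 1.09% were lower and 0.58% higher in subconfluent cells (4.03% and 2.91% with the experiments as pairs). In that fit, Neu1 had a log2 difference of -0.44 (limma adjusted p = 0.568). Ctsa, the third gene of that complex, was named here after its value was seen and had means of 917 ± 424 in subconfluent and 1841 ± 576 in confluent cells (SD, n = 4 each), a log2 difference of -1.02 (limma adjusted p = 0.0902, and 0.0104 with the experiments as pairs).

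Gaa, Man2b1 and Gla act on glycogen, N-glycans and globosides. Gaa encodes acid alpha-glucosidase, which breaks down glycogen in the lysosome. Its signal was 1907.7, 1636.3, 3058.8 and 3109.6 in subconfluent experiments 1 to 4, against 4217.1, 2907.1, 4583.3 and 3554.9 in confluent ones. Gaa was lower in subconfluent cells in every experiment, most in experiment 1 (log2 -1.12) and least in experiment 4 (-0.19), and the groups overlapped because confluent replicate 2 lay below subconfluent replicates 3 and 4. The means of Gaa were 2428 ± 766 in subconfluent and 3816 ± 740 in confluent cells (SD, n = 4 each). The log2 difference of -0.68 ± 0.24 (SE) did not pass (limma adjusted p = 0.101), whereas with the experiments as pairs it was called lower (limma adjusted p = 0.0196), as it was with chip lot as a block (-0.80, adjusted p = 0.0348), where 5.24% of all tested probe sets were lower and 6.13% higher. The paired call was lost without pair 1 (limma adjusted p = 0.067) and without pair 3 (adjusted p = 0.0659). A second Gaa probe set averaged 60.0 and had a log2 difference of 0.02.

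Man2b1 encodes lysosomal alpha-mannosidase, which trims mannose from N-linked glycans. Man2b1 had signals of 773.2, 867.3, 1141.3 and 1143.7 in subconfluent experiments 1 to 4, against 1357.0, 1086.0, 1624.6 and 1261.8 in confluent ones. It was lower in subconfluent cells in every experiment, with some overlap, since confluent replicate 2 lay below subconfluent replicates 3 and 4. The log2 difference of -0.43 ± 0.18 (SE) did not pass (limma adjusted p = 0.17, and 0.0646 with the experiments as pairs), and a second tested probe set of Man2b1, whose name marks a less strictly chosen set of oligonucleotides, gave -0.15. Gla encodes alpha-galactosidase A, which removes galactose from globotriaosylceramide, a lipid that builds up in endothelial cells when the enzyme is missing. Gla had signals of 82.3, 16.0, 13.9 and 70.4 in subconfluent experiments 1 to 4, against 199.5, 32.3, 76.8 and 158.2 in confluent ones. These weak values were lower in subconfluent cells in every experiment, and the groups overlapped. In the fit without the signal minimum, Gla had a log2 difference of -0.75 ± 0.37 (SE, limma adjusted p = 0.348, and 0.0583 with the experiments as pairs).

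**Figure D3:**
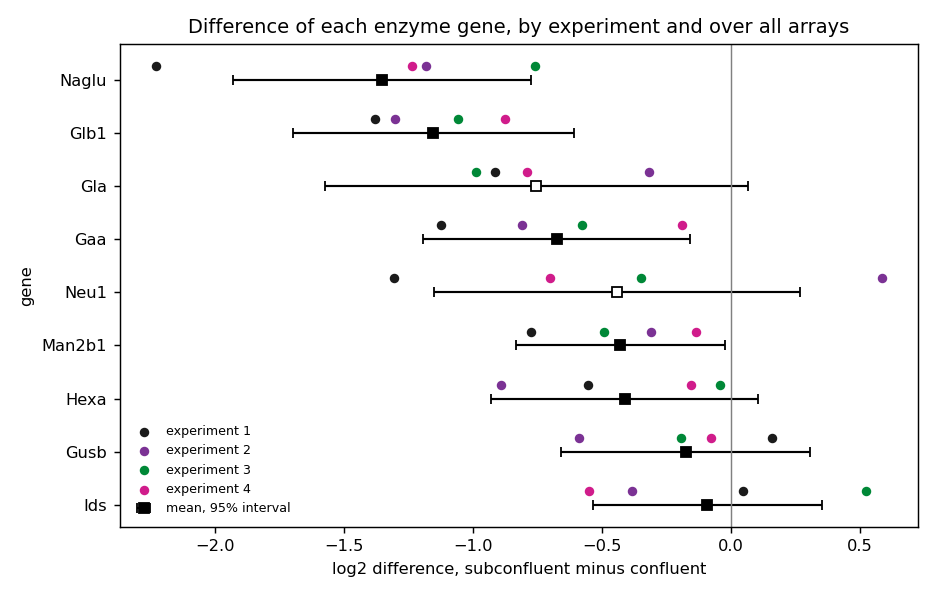
Log2 difference, subconfluent minus confluent, of each gene (rows, most negative at the top) in each of the 4 experiments (coloured points) and over all arrays (squares with 95% intervals, open for Gla and Neu1, which lay under the signal minimum). The intervals of Naglu, Glb1, Gaa and Man2b1 exclude 0 before adjustment, and 6 of the 9 genes lie below 0 in all 4 experiments.

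As a group, all 7 tested members had negative differences, against 48.8% of all tested probe sets, and their median was -0.43 against 0.01. Of the 7, 2 were called lower (28.6% against 4.06% of all tested probe sets) and 4 had an unadjusted p under 0.05, all of them lower (against 12.8% of all tested probe sets). With the experiments as pairs, Gaa joined Naglu and Glb1, so that 3 of 7 were lower against 11.3% of all. Among all tested probe sets 22.1% were lower in all 4 experiments, and 5 of the 7 tested members were, the exceptions being Gusb and Ids. By experiment the median of the 7 was -0.77, -0.81, -0.49 and -0.19 in experiments 1 to 4, and that of all tested probe sets stayed between -0.02 and 0.04. The genes were chosen with earlier results of these data known, and the labels themselves name lysosomes among the groups lower with loss of confluency, so these counts are not independent evidence of direction.

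Whether the members differed from each other in their change was tested for all 21 pairs of tested members on the within-array log2 ratio, by a two-sided exact permutation test of 4 against 4 arrays, in which the smallest possible p is 0.0286. For 6 pairs the test gave that smallest p, namely Naglu against Hexa, Gusb, Man2b1 and Ids, and Glb1 against Hexa and Gusb. The log2 ratio of Gusb to Naglu was 1.18 higher in subconfluent than in confluent cells, and that of Naglu to Ids differed by -1.26, each with the same sign in all 4 experiments. After Benjamini-Hochberg adjustment the smallest p was 0.1 by the exact permutation test. With 4 arrays a group, at least 13 of the 21 pairs would have had to reach the smallest possible p for any to pass 0.05, so the adjusted values say little, and the test did not use the pairing of the experiments. Between Naglu and Glb1 the changes differed by 0.20 (exact p = 0.343).

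**Figure D4:**
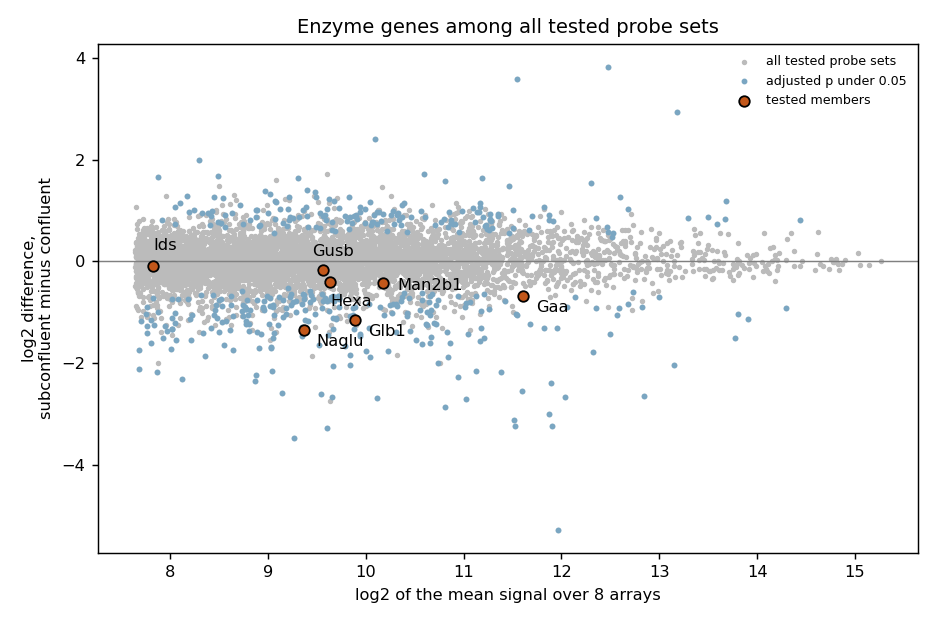
Log2 difference, subconfluent minus confluent, against the log2 of the mean signal over the 8 arrays for all 6007 tested probe sets (grey), those with a limma adjusted p under 0.05 (blue) and the 7 tested members (orange, named). Naglu and Glb1 lie at the lower edge of the cloud at their signal, and Ids and Gusb lie within it.

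Lists of other lysosomal genes, grouped by role, showed further genes lower in subconfluent cells and none called higher in the unpaired limma fit. Of 7 tested activators and partner proteins 2 fell, with a median of -0.66. These were Igf2r, the receptor that carries tagged hydrolases to the lysosome (log2 -0.66 ± 0.15 SE, limma adjusted p = 0.0298), and Scarb2, the receptor that brings beta-glucocerebrosidase there (-0.77 ± 0.18 SE, adjusted p = 0.0331). Of 10 tested proteases 2 fell, with a median of -0.75, namely Lgmn, an asparaginyl endopeptidase (-1.37 ± 0.25 SE, limma adjusted p = 0.016), and Ctsb, a cysteine protease (-0.90 ± 0.23 SE, adjusted p = 0.0409). With the experiments as pairs the counts were 6 of 7 and 8 of 10. Ctsa stands in both lists.

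The remaining lysosomal lists held no gene called in the unpaired fit. Among all tested probe sets 25.9% had an unadjusted p under 0.05 in either direction. Of 5 tested genes on the list of other glycosidases and sulfatases 0 were called and 3 had an unadjusted p under 0.05 (limma). The median of the 5 was -0.43, and with the experiments as pairs 2 were lower and 1 higher. That list also held Hgsnat and Sumf1, the latter named here after its value was seen. Neither gene encodes a glycosidase or a sulfatase, and the median is the value of Sumf1. Arsa, the arylsulfatase that takes sulfate from sulfatide, had a log2 difference of -1.05 (limma adjusted p = 0.0948, and 0.00638 with the experiments as pairs). Hyal2, a hyaluronidase, ran the other way at 0.47 (limma adjusted p = 0.116, and 0.04 with the experiments as pairs). Of 10 tested membrane and lipid-handling genes 0 were called and 4 had an unadjusted p under 0.05, with a median of -0.33, led by the membrane glycoprotein Lamp2 (-1.19, limma adjusted p = 0.0564, and 0.00467 with the experiments as pairs) and Laptm4a, a transmembrane protein of the lysosome (-0.62, adjusted p = 0.0574, and 0.00941 in pairs). Of 13 tested subunits of the proton pump that acidifies the lysosome 0 were called and 2 had an unadjusted p under 0.05, with a median of -0.30. Among these pump genes Atp6v1a, a catalytic subunit, had -0.64 (limma adjusted p = 0.0566, and 0.0152 with the experiments as pairs) and Atp6v0d1 had -0.46 (adjusted p = 0.182, and 0.0343 in pairs). With the experiments as pairs, 5 of the 10 membrane genes and 3 of the 13 pump genes were lower.

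**Figure D5:**
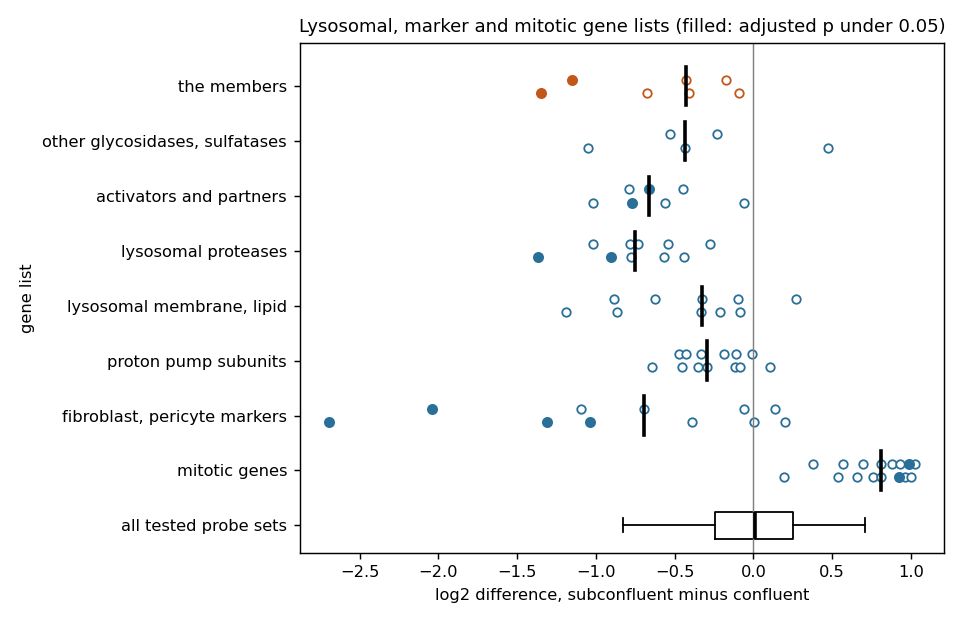
Log2 difference, subconfluent minus confluent, of each tested gene (points, filled where the limma adjusted p was under 0.05) in the members, 5 other lysosomal lists and 2 marker lists, with the median of each list as a bar. The box gives the quartiles of all 6007 tested probe sets and its whiskers their 5th and 95th percentiles; the medians of the lysosomal lists lie between -0.75 and -0.30 and that of the mitotic genes at 0.81.

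Markers of other cell types and of proliferation moved between the groups as well, and their part in the enzyme differences was not tested. Of 14 fibroblast and pericyte markers 11 were tested and 4 fell in subconfluent cells (6 with the experiments as pairs), with a median of -0.69. Of the 11, 8 had negative differences, and the others ran the other way, up to 0.20, with none called. The summed signal of that list ran from 38393 to 53317 in subconfluent and from 65766 to 94974 in confluent arrays, and its strongest genes were the collagen genes Col1a1 and Col1a2. Of these, Col1a2 was called lower (log2 -1.04, limma adjusted p = 0.0163). Col1a1, at -0.39, was called only with the experiments as pairs (limma adjusted p = 0.28, and 0.0221 in pairs). Of 12 macrophage markers 10 stayed under the minimum, and the summed signal ran from 2100 to 2785 in subconfluent and from 2697 to 4079 in confluent arrays. Of these 10, Cd68 and Csf1r lay closest to the minimum, with at most 229.4 and 216.6 on any array, and the other 8 reached at most 121.7, with Adgre1 at 63.6, Itgam at 39.3 and Tyrobp at 40.6. Lyz2, which encodes lysozyme, averaged 8.40 in subconfluent and 51.0 in confluent cells (n = 4 each, limma adjusted p = 0.199 without the signal minimum). Cd14 and Laptm5 were the strongest macrophage genes, with log2 differences of -0.70 and 0.27 (limma adjusted p = 0.0563 and 0.417), and with the experiments as pairs Cd14 was called lower (adjusted p = 0.0228). The summed signal of the 15 endothelial markers ran from 1338 to 1779 in subconfluent and from 1530 to 2023 in confluent arrays. Of 7 smooth muscle markers 3 were tested and 1 fell, Mylk (log2 -1.84, limma adjusted p = 0.0163). Acta2 and Tagln ran the other way, at 1.14 and 1.47 (limma adjusted p = 0.228 and 0.108), and both were called higher with the experiments as pairs (adjusted p = 0.0172 and 0.0102). The summed signal of the smooth muscle markers ran from 1805 to 9397 in subconfluent and from 2924 to 4810 in confluent arrays. Of 16 tested mitotic genes 2 rose, Birc5 and Cdc20 (10 with the experiments as pairs), with a median of 0.81, and the summed signal ran from 33060 to 36626 in subconfluent and from 11126 to 28979 in confluent arrays. No marker was listed at 0. For each tested member, log2 values were set against its mean over the 4 confluent arrays. Their median lay at -0.73, -1.13, -0.22 and -0.27 in subconfluent experiments 1 to 4, against 0.16, -0.27, -0.03 and -0.02 in confluent ones. The members were thus lowest on subconfluent replicate 2, the array with the largest scale factor and alone in its chip lot.

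The genes on the array whose pattern was most like the mean profile of the members over the 8 arrays were Dhrs7, Gstm2, Ech1, Vegfd and Slc50a1, with Pearson correlations from 0.981 to 0.989. These correlations describe 8 arrays in 2 groups and include the difference between the groups. Gstm2, a glutathione transferase, had a log2 difference of -1.62 (limma adjusted p = 0.0293). Vegfd, a growth factor of lymphatic vessels, had -1.88 (limma adjusted p = 0.041), and Dhrs7, a dehydrogenase, had -0.93 (adjusted p = 0.0319). Ech1, an enzyme of fatty acid oxidation, had -0.60 and the sugar transporter Slc50a1 had -0.65, and neither was called (limma adjusted p = 0.0828 and 0.0995) except with the experiments as pairs (adjusted p = 0.0152 and 0.0143).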

How the data were processed

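Each array gave 1 linear signal per probe set, which the authors computed with Affymetrix's statistical method and set to a target level of 500, per the labels. These deposited values were not normalized again. Of 12488 probe sets 66 controls were left out. In the platform annotation 10855 probe sets have 1 gene symbol, 396 have more than 1 and 1237 lack one, and probe sets without exactly 1 symbol were tested but not named. Signals were tested as log2(signal + 50) by limma 3.58.1 in R 4.3.3 (trended variance, 6 residual degrees of freedom, two-sided), after tests on simulated data. Python 3.11.15 was used for tables and plots.

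Arrays of the same experiment number deviated together from their group means (correlations from 0.348 to 0.516, against at most 0.0681 for other combinations), and on that basis equal numbers were treated as pairs. The p-values measure the spread between these cultures, whose origin is not described further. Chip lot A held subconfluent and confluent replicate 1, lot B confluent 2 and 4, lot C subconfluent 3 and 4 and confluent 3, and lot D subconfluent 2.

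Named were all members, and the called genes and the 2 with the smallest p of each other lysosomal list. The 5 genes most like the members' mean profile and the strongest genes of marker lists were named too. Others are marked as chosen after their values were seen. The endothelial, macrophage, smooth muscle and mitotic genes were also chosen after their values were seen. Members and lists were chosen with earlier results of these data known. The promoter search and the tests between members were added after the values were seen. Alternatives covered the pseudocount, the filter, the scaling, the probe set per gene, the pairing, the chip lot and single arrays left out.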

Additional observations from a re-analysis of the deposited data

How the results depend on the processing

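With the replicate block, which pairs the experiments, 1276 probe sets passed instead of 409, and Gaa joined Naglu and Glb1; the block changed no other call among the members, and the counts of the lists that it changed stand beside them. Without the signal minimum 208 passed, and without it but with the replicate block, an alternative added after seeing the data, 862 passed. With chip lot as a fixed block 683 passed and as a random block 938, and Gaa was called in both. Within chip lot C 5 probe sets and 0 members were called. Leaving out 1 array gave 98 to 687 probe sets and 0 to 2 members, and leaving out 1 pair under the block gave 590 to 1270 probe sets (650 without pair 4) and 2 to 3 members. The median of the members was -0.77 within chip lot A, which has 1 array per group and no test, from -0.56 to -0.38 without 1 array and from -0.53 to -0.36 without 1 pair. Ids changed sign, to 0.17 with chip lot as a fixed block, 0.27 within lot C, 0.046 within lot A, and 0.0072 and 0.062 in the block without pair 2 and without pair 4. Gusb was at 0.16 within lot A. The causes were not tested. Weak signal limits Gla, Neu1 and Ids.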
